A study of Mus musculus with 12 samples.

Results

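The enzymes of oxidative phosphorylation were followed through the nuclear genes that encode them. The genes were every row of the deposited gene table whose symbol begins with Ndufa, Ndufb, Ndufc, Ndufs or Ndufv, is Sdha, Sdhb, Sdhc or Sdhd, or begins with Uqcr, Cox4 to Cox8, or Atp5. The rule uses names only and finds 92 genes of the 24781 in the table. They comprise 36 genes of complex I, 8 Ndufaf assembly factors of complex I, 4 genes of complex II, 8 of complex III, 20 of complex IV, 15 of the ATP synthase, and Atp5s, which is named after the synthase but is not a subunit of it. Ndufa4 and Ndufa4l2 were counted with complex IV, since NDUFA4 was first assigned to complex I and later found in cytochrome c oxidase.

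Complexes I and II pass electrons from NADH and succinate to ubiquinone, complex III passes them on to cytochrome c, and complex IV hands them to oxygen. Complexes I, III and IV pump protons across the inner mitochondrial membrane, and the ATP synthase uses the return flow to make ATP. All of these enzymes except complex II also hold subunits encoded in mitochondrial DNA, and a subunit made in excess of its partners is generally degraded. Resting T cells are known to draw much of their ATP from this pathway, while activated T cells also raise glycolysis.

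The cells were iNKT cells (invariant natural killer T cells), lymphocytes that see lipids held by CD1d through a nearly fixed T cell receptor, sorted from the lung or the thymus of mice aged 6 weeks. All were sorted as TCRbeta+, NK1.1+, CD1d tet+ and CXCR6+, and each library was made from 100 cells. The CD244+ cells are called C2 and the CD244- cells C1 in the series, and CD244 is a receptor of the SLAM family found on many NK cells. The 4 groups of 3 libraries are lung CD244-positive, lung CD244-negative, thymus CD244-positive and thymus CD244-negative. The labels used here give no strain, transgene or treatment, and the surface gate is what defines each group. The replicates are described as separately prepared libraries, with no separate animals named, so every p-value is set against the spread among these 12 samples alone, and that spread may be technical.

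The deposited values are molecule counts multiplied by 1 constant per library, and levels are given as molecules per 10000 molecules of the same library. Libraries held 42520 to 51436 molecules in lung CD244-positive, 29696 to 32196 in lung CD244-negative, 56615 to 71789 in CD244-positive thymus cells and 60120 to 67478 in CD244-negative ones. A single molecule was therefore worth 0.194 to 0.235, 0.311 to 0.337, 0.139 to 0.177 and 0.148 to 0.166 per 10000 in the same order, and the lung CD244-negative libraries are the least precise. Levels of different genes are compared without a length term, because the molecular barcode sat in the oligo-dT primer at the transcript's end. The T cell markers were present in every group. The 3 lung CD244-positive libraries stood apart: the 12 macrophage markers (Lyz2, C1qa and Apoe among them) summed to 62.1, 124.9 and 102.5 per 10000 there, against 0.311 to 0.673 in lung CD244-negative libraries. In thymus they summed to 3.62 to 5.12 in CD244-positive and 0.449 to 0.832 in CD244-negative libraries. Lyz2, C1qa, C1qb, C1qc, Apoe, Mrc1, Adgre1 and Cd14 were at 0 in the other 3 groups. In lung, the 9 T cell markers summed to 9.41 to 20.5 per 10000 in CD244-positive libraries, against 25.9 to 34.4 in CD244-negative ones. The genes of cytosolic ribosomal proteins, which fill a large share of each library, summed to 1565 ± 146 and 1856 ± 18.9 per 10000 in lung CD244-positive and CD244-negative cells, against 2770 ± 88.4 and 2805 ± 107 in thymus (SD, n = 3 each). Every share of the lung libraries was set against a total with that smaller ribosomal part.

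**Figure D1:**
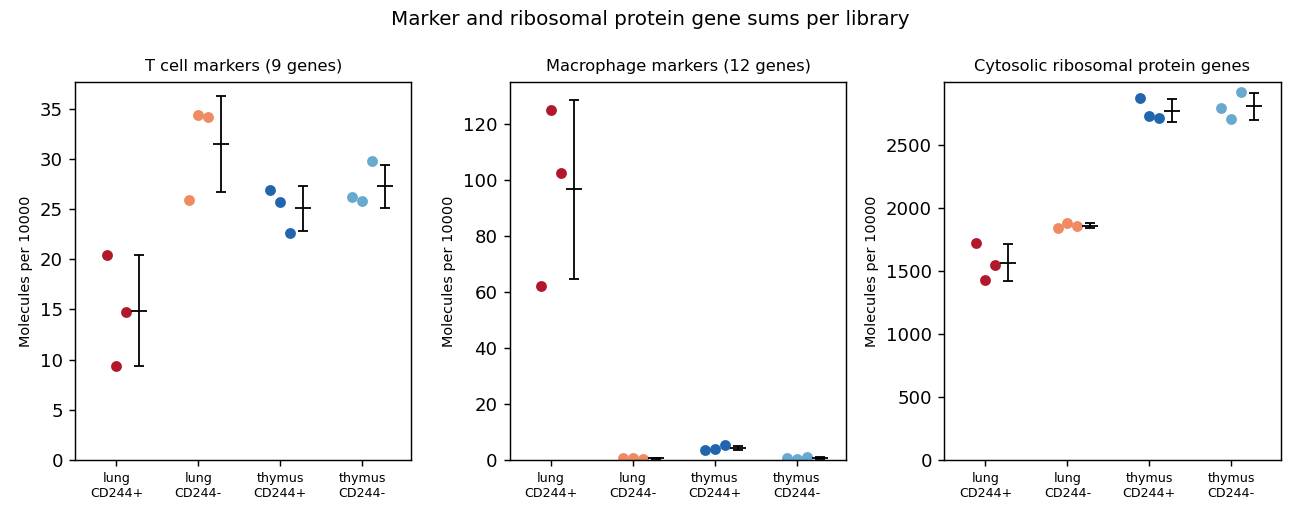
Summed level of T cell markers, macrophage markers and cytosolic ribosomal protein genes in each library, in molecules per 10000 on linear axes from 0; points are libraries, bars are the mean and SD of 3. Macrophage markers stood at 62.1 to 124.9 in the lung CD244-positive libraries, above all other libraries.

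Most of the set was detected in every group. Of the 92 genes, 83 had a molecule in lung CD244-positive, 82 in lung CD244-negative, 83 in CD244-positive thymus cells and 84 in CD244-negative ones. All genes of complexes I, II and III and of the ATP synthase were seen in each group. The 7 genes without a molecule in any library were Cox4i2, Cox6a2, Cox7a1, Cox7b2, Cox8b, Cox8c and Ndufa4l2. These are the tissue-restricted relatives of cytochrome oxidase subunits: Cox6a2, Cox7a1 and Cox8b are the forms of heart and skeletal muscle, Cox7b2 and Cox8c are known from testis, Cox4i2 is a form of lung, and Ndufa4l2 is known as a gene induced by low oxygen. A count of 0 among the 621158 molecules of all libraries allows a level of up to 0.0483 per 10000, by counting error alone. A further testis form, Cox6b2, had 2 molecules in all, both in lung cells.

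The general forms of the same subunits were among the most abundant genes of the set. Cox8a had the highest level of the 92, at 7.16 ± 1.93 per 10000 in lung CD244-positive, 5.89 ± 0.885 in lung CD244-negative, 6.89 ± 0.672 in CD244-positive thymus cells and 8.76 ± 1.82 in CD244-negative ones. Cox6a1 was at 2.72 ± 0.635, 2.82 ± 0.432, 3.40 ± 0.558 and 3.69 ± 0.184 in the same order, and Cox6b1 at 2.23 ± 1.39, 2.07 ± 0.838, 3.57 ± 0.408 and 3.62 ± 0.710 (SD, n = 3 each). Uqcrh, the acidic hinge subunit that helps complex III bind cytochrome c, averaged 4.95 per 10000 over the 12 libraries, more than any other gene of its complex, where Uqcr10 followed at 1.58 and the core subunit Uqcrc2 at 1.49. In complex I the accessory subunits Ndufa13, Ndufa3 and Ndufa6 led with 2.93, 2.88 and 2.47. In complex II the flavoprotein gene Sdha averaged 0.981, the iron-sulfur gene Sdhb 0.965, and the membrane anchors Sdhc and Sdhd 0.911 and 0.579. The median of the gene averages was 0.938 in complex II, near the 0.912 of complex I and below the 1.38 of complex III.

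In the ATP synthase the epsilon subunit gene Atp5e led with 4.21 per 10000. Its proton-carrying ring is built from subunit c, which 3 genes encode as an identical mature protein. Atp5g3 averaged 4.05, Atp5g2 3.69 and Atp5g1 1.06 per 10000 over the 12 libraries. Atp5g3 was at 3.30 ± 0.374 in lung CD244-positive, 4.20 ± 1.89 in lung CD244-negative, 4.57 ± 1.04 in CD244-positive thymus cells and 4.15 ± 0.426 in CD244-negative ones, and Atp5g2 at 2.75 ± 0.572, 4.03 ± 0.536, 4.12 ± 1.15 and 3.89 ± 0.464 in the same order (SD, n = 3 each). The assembly factors were scarce, from 2 molecules in all for Ndufaf6 to an average of 0.514 per 10000 for Ndufaf8. For 5 genes more than 10% of the nonzero values were not whole numbers of molecules, which leaves their counts uncertain: Cox7c (58.3%), Ndufs5 (45.5%), Atp5h (25%), Ndufs7 (18.2%) and Atp5g2 (16.7%). Of the 15 mitochondrial DNA genes listed for comparison (13 subunits and both ribosomal RNAs), 0 were rows of the table, so the partner subunits are not analysed here.

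Promoter windows of these genes were searched for motifs of known regulators of the respiratory chain. NRF1 is a transcription factor known to bind promoters of respiratory genes at a GC-rich palindrome. The 4 stretches below show the core GCATGCGC (capitals) in genes that differed between lung and thymus, as described further on; each is 60 bases on the gene's strand, from RefSeq windows on build GRCm38.p6. The stretches are Ndufa8 at chr2:36049339-36049398 (minus strand), Atp5k at chr5:108434414-108434473 (minus strand), Ndufa6 at chr15:82354341-82354400 (minus strand) and Ndufa11 at chr17:56717678-56717737 (plus strand).
Ndufa8: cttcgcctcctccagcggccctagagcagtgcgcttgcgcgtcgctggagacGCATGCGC
Atp5k: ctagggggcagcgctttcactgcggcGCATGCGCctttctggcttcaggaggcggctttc
Ndufa6: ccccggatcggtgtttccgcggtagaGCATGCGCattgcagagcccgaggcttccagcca
Ndufa11: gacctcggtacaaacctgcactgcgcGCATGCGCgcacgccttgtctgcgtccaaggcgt
The core begins 8 bases before the RefSeq start of Ndufa8, 48 before that of Atp5k, 83 before that of Ndufa6 and 58 before that of Ndufa11. In Atp5k and Ndufa11 an overlapping copy also reads on the opposite strand.

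Of the 92 genes, 74 had at least 1 promoter window of 250 bases before to 50 bases after a RefSeq start, 79 windows in all. The NRF1 core was in 12 of these windows (15.2%), against 5.52% of the windows of all genes tested here and 2.71% of all 32851 windows, counting both strands. The motif AAGATGGC, bound by YY1, was in 10 windows (12.7%), against 5.01% and 2.75%. The motif CCGGAAGT, of the ETS family to which the GABPA factor belongs, was in 5 windows (6.33%), against 8.66% and 3.89%. In 26 windows (32.9%) at least 1 of the 3 motifs was found, against 17.8% and 8.83%. The AAGATGGC matches lay 10 to 38 bases after the start, except in Atp5j, where the match began 88 bases before it. A match is a run of letters and does not show that a factor was bound in these cells. Of the 11 genes that passed the test in some comparison below, 4 held the NRF1 core and 0 held either of the other motifs; Cox4i1, among the 11, is not in the promoter table.

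Lung against thymus in CD244-negative cells gave the most differences in the set. Transcripts of complexes I, III and IV took a smaller share in all 3 lung CD244-negative libraries than in any thymus CD244-negative library, and 8 single genes fell: Cox4i1, Ndufa4 and Cox7c of complex IV, Ndufb4, Ndufb7, Ndufa8 and Ndufa11 of complex I, and Atp5k of the ATP synthase. The sum over the 92 genes was 111.5, 121.6 and 122.8 per 10000 in lung, against 152.0, 151.8 and 159.9 in thymus, a difference of -23.2% (log2 ratio -0.38). The groups did not overlap. Markers of lung epithelium summed to 1.63 to 3.03 per 10000 in the lung CD244-negative libraries and were at 0 in thymus. Scgb1a1, the 1 of these tested, rose, and it entered the test through lung libraries only. The 9 T cell markers were at 25.9 to 34.4 in lung against 25.9 to 29.8 in thymus, where 1 rose (Thy1) and 0 fell. The 5 iNKT markers were at 16.8 to 23.9 against 20.7 to 27.4, where 1 fell (Klrb1c) and 0 rose. Of the 12 macrophage markers 0 passed. The part of all these markers in the result was not tested. In bulk libraries of this kind, fewer cells of a type and less RNA per cell cannot be told apart.

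The difference was of unlike size between the complexes. Complex IV summed to 30.5 ± 1.40 per 10000 in lung and 44.3 ± 3.42 in thymus, a difference of -31.1%. Complex I summed to 33.2 ± 0.942 and 44.4 ± 0.792 (-25.2%), and complex III to 11.8 ± 0.911 and 15.3 ± 0.509 (-22.5%). For these 3 complexes every lung library was below every thymus library. The ATP synthase, with 38.4 ± 4.51 in lung and 45.1 ± 2.75 in thymus, and complex II, with 3.26 ± 0.870 and 3.82 ± 1.03, had groups that overlapped (SD, n = 3 each). Whether the complexes differ from each other was not tested. With the library total counted without ribosomal protein genes, the log2 ratio of the sum over the 92 genes was -0.56.

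**Figure D2:**
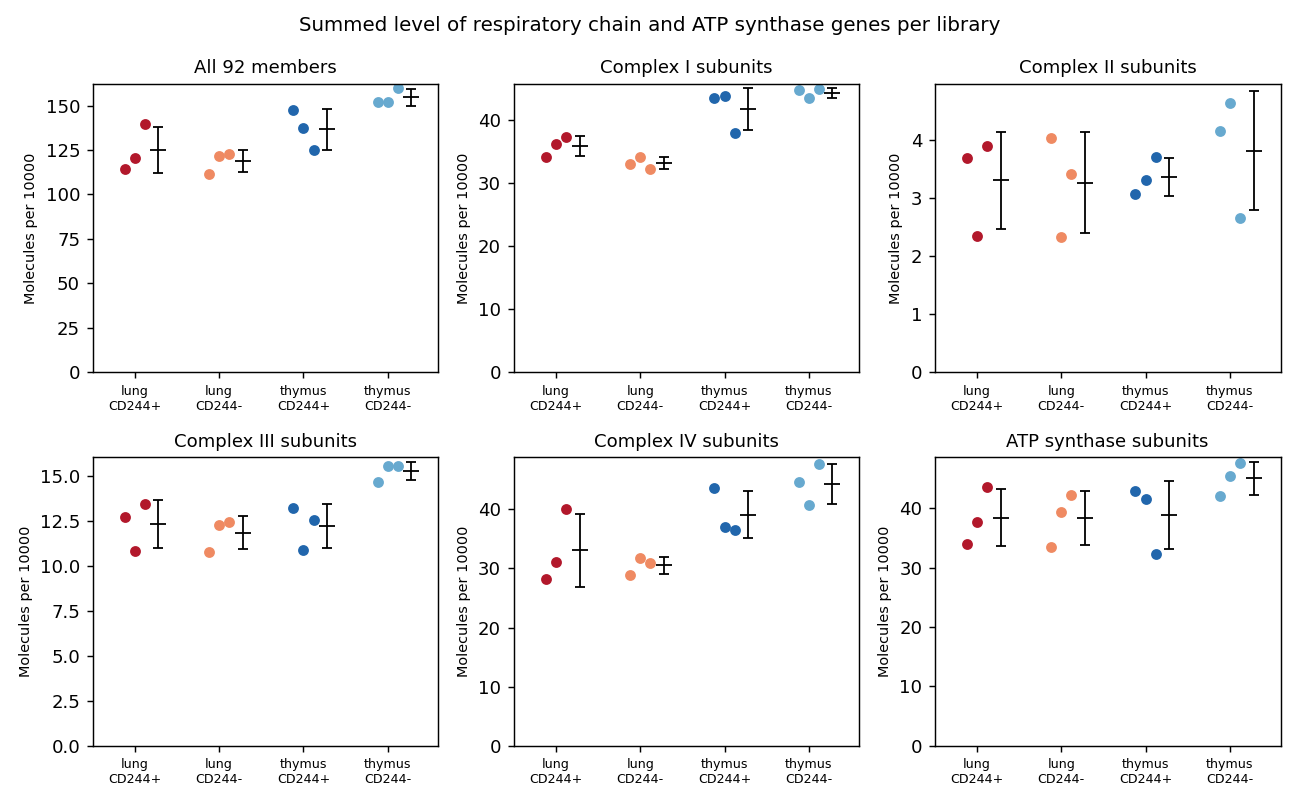
Summed level of all 92 genes and of each complex per library, in molecules per 10000 on linear axes from 0; points are libraries, bars are the mean and SD of 3 libraries. The thymus CD244-negative libraries, at 151.8 to 159.9 for all 92 genes, lie above every other library, while the lung CD244-negative libraries lie at 111.5 to 122.8.

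The test was run on 4577 genes with more than 0.5 molecules per 10000 in at least 3 libraries, which 74 of the 92 genes passed. Of these 74, 8 fell and 0 rose in lung CD244-negative against thymus CD244-negative cells, where 3.3% of all tested genes fell and 3.58% rose, 6.88% together. No gene rose in limma, nor among the 37 that edgeR and the 77 that DESeq2 tested. Of these, edgeR called 3 lower and DESeq2 1. Among the 8 falls in limma, Cox4i1 was called in both tools, Ndufa4 in edgeR only, and Cox7c and Atp5k in neither. Ndufb4, Ndufb7, Ndufa8 and Ndufa11 were not among the 37 genes that edgeR tested. In limma 2 genes had a positive difference with an unadjusted p under 0.05. The median difference was -0.36 on the log2(molecules per 10000 + 0.5) scale, against -0.01 over all tested genes, and 52 of the 74 lay below 0, as did 50.4% of all tested genes. In 15 genes all lung libraries were below all thymus libraries (10.1% of all tested genes), and in 5 they were above (11.3%). Those 5 were Atp5o, Ndufa5, Ndufa9, Ndufv1 and Uqcrc1, none of which passed the test; they are named after their values were seen.

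Cox4i1, the general form of subunit 4 of cytochrome c oxidase (chromosome 8, 120668222 to 120674207 on GRCm38, GENCODE M21), showed the smallest p. It was at 1.68, 2.32 and 1.24 per 10000 in the lung CD244-negative libraries, against 5.04, 4.79 and 4.82 in the thymus CD244-negative ones. No lung library came near a thymus library, and the groups held 16 and 95 molecules. The log2 difference was -1.29 ± 0.29 (SE; limma, Benjamini-Hochberg adjusted p = 0.00141). It was past the threshold in all 19 other settings and tools run for it, with adjusted p of at most 0.0297.

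Ndufa4 (chromosome 6, 11900292 to 11907497), a further subunit of complex IV, was at 0.673, 1.33 and 0.621 per 10000 in lung and at 3.26, 1.94 and 2.99 in thymus. Again the groups were apart, with a log2 difference of -1.25 ± 0.34 (SE, adjusted p = 0.0131). Cox7c (chromosome 13, 86044816 to 86046904), one of the small membrane subunits of complex IV, was at 1.35, 0.829 and 2.64 in lung and at 3.41, 3.81 and 2.66 in thymus. Its highest lung library nearly met its lowest thymus library, the log2 difference was -0.93 ± 0.30 (SE, adjusted p = 0.0407), and its counts are among the uncertain ones. Ndufa4 did not pass without thymus CD244-negative library 1 or 3 or lung CD244-negative library 3, nor did Cox7c without any 1 of the libraries compared except lung library 3. DESeq2 called neither gene, and edgeR did not call Cox7c. In all, Cox7c lost its call in 11 of its 19 other settings and tools, among them no filter, sample quality weights and only the libraries compared.

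The 4 complex I genes were accessory subunits, and each rested on 2 or 3 molecules in lung CD244-negative cells. Ndufb7 (chromosome 8, 83566671 to 83571626), which lies on the intermembrane side of the membrane arm, was at 0.337, 0.332 and 0.311 per 10000 in lung, against 2.07, 1.65 and 1.16 in thymus. Ndufb4 (chromosome 16, 37647170 to 37654453), a membrane arm subunit, was at 0.337, 0.663 and 0, against 1.63, 1.20 and 1.66. Ndufa8 (chromosome 2, 36036326 to 36049406), a subunit of the intermembrane face, was at 0.673, 0 and 0, against 1.33, 1.05 and 1.16.
All lung values were below all thymus values in these 3 genes. The log2 differences were -1.34 ± 0.36, -1.34 ± 0.36 and -1.34 ± 0.38 (SE) for Ndufb7, Ndufb4 and Ndufa8, with adjusted p of 0.00941, 0.0111 and 0.0160. As ratios of the pooled shares, with exact 95% intervals that cover counting error only, they were 0.198 (0.0388 to 0.633), 0.219 (0.0426 to 0.705) and 0.184 (0.0210 to 0.744). None of the 3 passed without thymus CD244-negative library 1, Ndufb4 and Ndufa8 did not without thymus library 3 or lung library 3, and Ndufa8 did not without lung library 2. DESeq2 did not call Ndufb4, and no adjusted p from DESeq2 was available for Ndufb7 and Ndufa8. None of the 3 genes was tested in edgeR.

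Ndufa11 (chromosome 17, 56717767 to 56722141), another membrane arm subunit, was at 0.673, 0 and 0.311 per 10000 in lung and at 0.889, 1.35 and 1.50 in thymus. Its log2 difference of -1.14 ± 0.37 (SE) had an adjusted p of 0.0496, at the edge of the threshold, and the ratio of the pooled shares was 0.264 (0.0509 to 0.870). Atp5k (chromosome 5, 108433244 to 108434448), subunit e of the ATP synthase, which helps hold the enzyme's dimers together, was at 0.337, 2.65 and 1.86 in lung and at 3.04, 3.14 and 4.16 in thymus. Lung library 1 lay far below the other two, and the log2 difference was -1.09 ± 0.34 (SE, adjusted p = 0.0332), or -0.52 without that library. Neither passed without any 1 of the 3 thymus libraries, nor did Atp5k without lung library 1 or Ndufa11 without lung library 2 or 3. Atp5k was not called in edgeR or DESeq2, edgeR did not test Ndufa11, and no adjusted p from DESeq2 was available for Ndufa11. Ndufa11 lost its call in 12 of its 16 other settings, among them quantile normalization, no filter and the replicate number as a block. Its call was also lost with a pseudocount of 2, sample quality weights and only the libraries compared. Atp5k lost its call in 9 of 19 settings and tools, among them no filter and only the libraries compared. Over the whole set, 1 gene passed without thymus CD244-negative library 1, 2 without library 3, and 5 without library 2 or without lung CD244-negative library 2 or 3.

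Several abundant genes had lower means in lung CD244-negative cells without passing the test. Cox8a differed by -0.53 ± 0.22 (adjusted p = 0.146), Uqcrh by -0.48 ± 0.24 (adjusted p = 0.257), Cox6b1 by -0.72 ± 0.31 (adjusted p = 0.177) and Ndufa3 by -0.74 ± 0.31 (adjusted p = 0.152; log2 differences, SE). Of the subunit c genes, Atp5g3 and Atp5g2 differed by -0.08 ± 0.27 and 0.04 ± 0.26, with adjusted p of 0.936 and 0.973. The 4 genes of complex II lay between -0.55 and 0.12, and none passed.

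**Figure D3:**
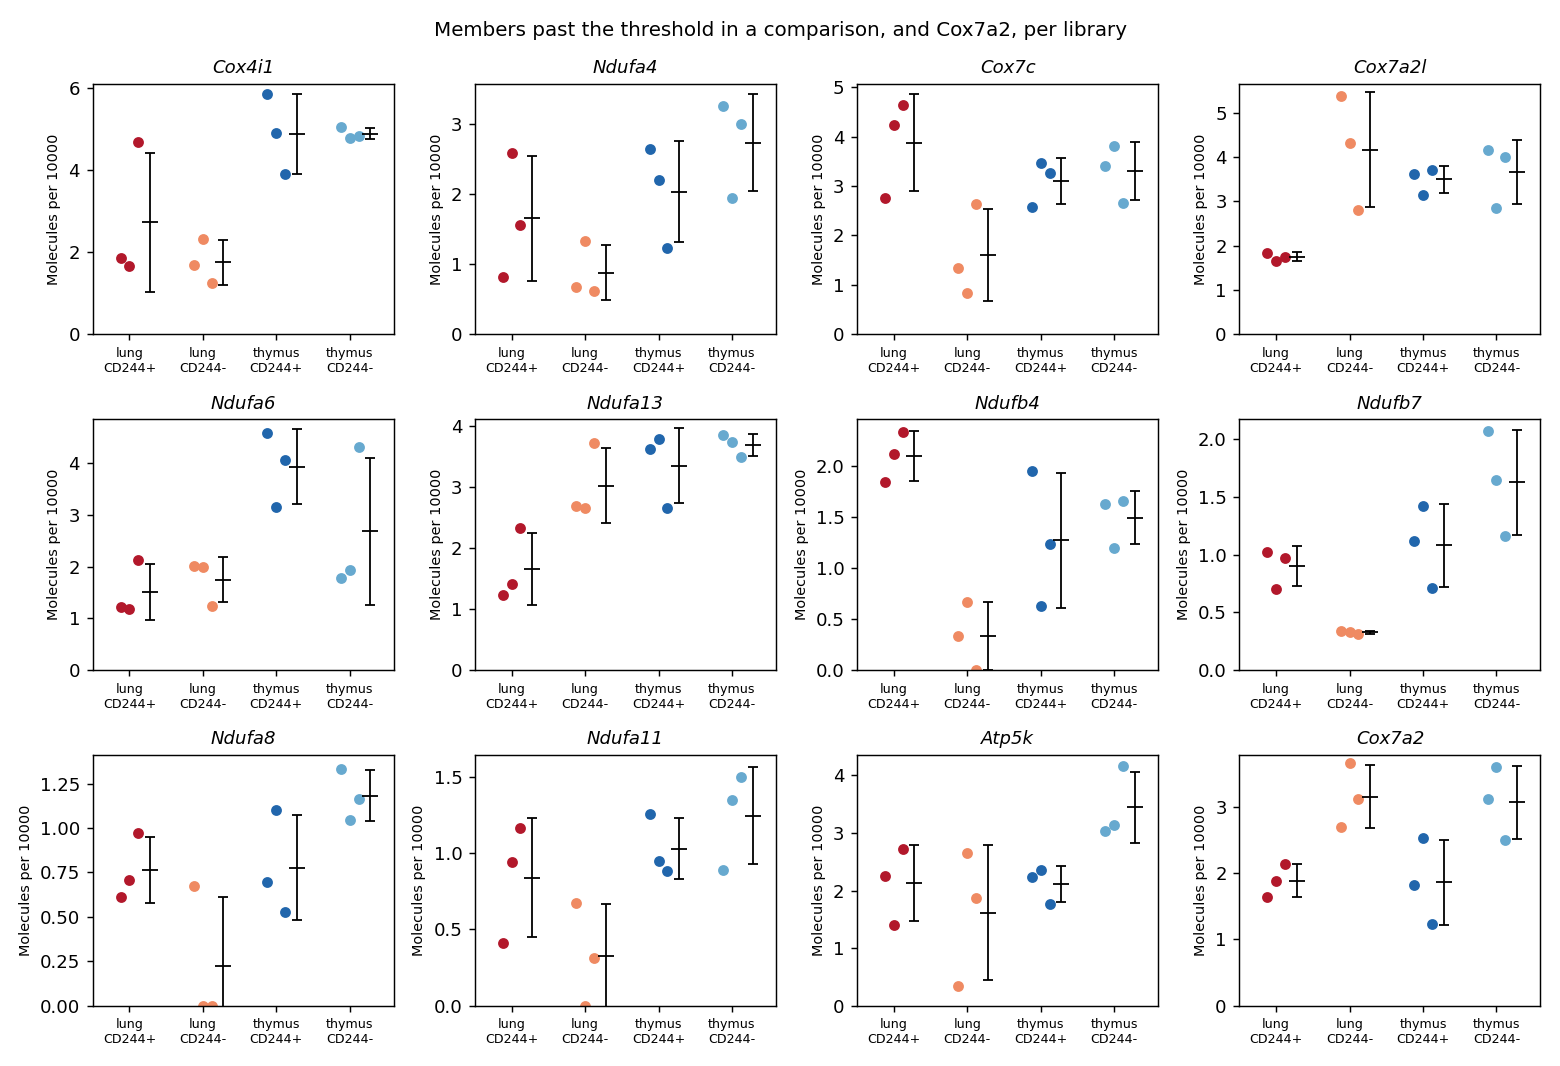
Level of the 11 genes that passed the test in any comparison, and of Cox7a2, which did not, in each of the 12 libraries, in molecules per 10000 on linear axes from 0; bars are the mean and SD of 3 libraries. Cox4i1 lies at 1.24 to 2.32 in the lung CD244-negative libraries and at 3.89 to 5.85 in the 6 thymus libraries; Cox7a2l lies at 1.65 to 1.84 in the lung CD244-positive libraries, below all other libraries.

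In CD244-positive cells, 4 genes of the set fell in lung against thymus. They were Ndufa6 and Ndufa13 of complex I, Cox7a2l and Cox4i1. Of the 74 tested genes 4 fell, where 4.5% of all tested genes fell, and 0 rose, where 7.8% of all rose (12.3% together). In limma 0 had a positive difference with an unadjusted p under 0.05. In edgeR and DESeq2 the thymus CD244-positive group would rest on library 3 alone, so their missing calls for the 4 genes say little. The median log2 difference was -0.02, against 0.00 over all tested genes, and 39 of the 74 lay below 0 (49.8% of all tested genes). It ranged from -0.15 to 0.03 with 1 library left out, lowest without thymus CD244-positive library 3 and above 0 without lung CD244-positive library 1 or 2. These lung libraries are the ones with 62.1 to 124.9 macrophage marker molecules per 10000, against 3.62 to 5.12 in thymus CD244-positive libraries, with 11 of the 12 past the test. The 4 MHC class II markers were at 48.9 to 126 against 0 to 0.139, all higher by the test. The 9 T cell markers were at 9.41 to 20.5 against 22.6 to 26.9 (3 fell), and the 5 iNKT markers at 5.64 to 12.4 against 22.3 to 26.4 (3 fell). The part of these markers in each result was not tested.

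Ndufa6 (chromosome 15, 82350140 to 82354322), an accessory subunit of the matrix arm of complex I, was at 1.23, 1.18 and 2.14 per 10000 in the lung CD244-positive libraries, against 4.60, 3.15 and 4.06 in the thymus CD244-positive ones. The groups were apart, and the log2 difference was -1.16 ± 0.31 (SE, adjusted p = 0.00593). Ndufa13 (chromosome 8, 69894180 to 69902558), an accessory subunit also known as GRIM-19 and needed for assembly of complex I, was at 1.23, 1.41 and 2.33, against 3.62, 3.78 and 2.65. Its groups were apart as well, with a log2 difference of -0.86 ± 0.28 (SE, adjusted p = 0.0328). Neither passed without thymus CD244-positive library 1, and Ndufa13 did not without thymus library 2 or lung library 1 or 2. With no filter Ndufa13 did not pass either.

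Cox7a2l (chromosome 17, 83501918 to 83517330), known for joining complexes III and IV into supercomplexes, was at 1.84, 1.65 and 1.75 per 10000 in lung CD244-positive libraries, against 3.62, 3.15 and 3.71 in thymus CD244-positive ones. The 3 lung values lay close together and below all thymus values, with a log2 difference of -0.83 ± 0.28 (SE, adjusted p = 0.0339). Cox4i1 was at 1.84, 1.65 and 4.67 in lung and 5.85, 4.89 and 3.89 in thymus, so the groups overlapped through lung library 3 (log2 difference -0.84 ± 0.29, adjusted p = 0.0419). Cox7a2l did not pass without any 1 of the 6 libraries compared, nor Cox4i1 without thymus library 1 or 2 or lung library 1 or 2. With no filter neither gene passed, and Cox4i1 did not with a pseudocount of 0.2 or the replicate number as a block. Over the whole set, 0 genes passed without thymus CD244-positive library 1, and 1 passed without thymus library 2 or without lung library 1 or 2.

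The summed level in CD244-positive cells was 114.6, 120.7 and 139.6 per 10000 in lung and 147.8, 137.3 and 124.9 in thymus. These groups overlapped. Complex I was the exception among the complexes, with 34.2, 36.2 and 37.3 in lung and 43.5, 43.8 and 37.9 in thymus, where every lung library was lower, although the gap between the nearest libraries was small. Complex III was at 12.3 ± 1.34 in lung and 12.2 ± 1.21 in thymus, a log2 ratio of 0.01 that was -0.21 with the total counted without ribosomal protein genes and -0.46 on the values as deposited. The ATP synthase was at 38.4 ± 4.81 in lung and 38.9 ± 5.77 in thymus (SD, n = 3 each).

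The comparisons of lung with thymus in CD244-positive and in CD244-negative cells share no library and can be set side by side. Cox4i1 fell in both, 1 of the 4 genes of the set that fell in CD244-positive cells (25%) and of the 8 that fell in CD244-negative cells (12.5%). Of all tested genes 80 fell in both, 38.8% and 53.0% of those that fell in each. In 30 of the 74 tested genes (40.5%) the difference was below 0 in both, as in 30.7% of all tested genes. The sign was the same in 58.1% of the 74 and in 59.4% of all tested genes. Ndufb4 differed by 0.62 ± 0.36 in CD244-positive cells (adjusted p = 0.328) and Cox7a2l by 0.14 ± 0.28 in CD244-negative cells (adjusted p = 0.857), each a positive log2 difference where the other comparison had a negative one.

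Between CD244-positive and CD244-negative cells of the thymus no gene of the set passed the test, and most differences lay below 0. The thymus libraries are the deepest, and the macrophage marker list summed to 3.62 to 5.12 per 10000 in CD244-positive and 0.449 to 0.832 in CD244-negative cells. Fcer1g, an adaptor that NK cells also express, held 3.34, 3.15 and 4.77 of the CD244-positive sums and was the gene of the list that passed; 9 of the 12 were at 0. Of the 74 genes 0 passed in limma, where 0.328% of all tested genes passed (0.262% higher and 0.0655% lower). An unadjusted p under 0.05 in limma was seen for 3 of the 74, and for 4.26% of all tested genes. In edgeR and DESeq2 the CD244-positive group would rest on library 3 alone, so missing calls there say little. The median log2 difference was -0.16, against -0.01 over all tested genes, with 56 of the 74 below 0 (51% of all tested genes). It was -0.10 without thymus CD244-positive library 3. In 9 genes all CD244-positive libraries were below all CD244-negative ones (6.27% of all tested genes), and in 0 above (5.62%).

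The summed level was 147.8, 137.3 and 124.9 per 10000 in thymus CD244-positive and 152.0, 151.8 and 159.9 in thymus CD244-negative libraries, a difference of -11.6% with groups that did not overlap. The gap was small: the nearest libraries, at 147.8 and 151.8, had exact 95% intervals of 139 to 157 and 143 to 161, which cover counting error only. Complex III was the only complex whose sums did not overlap: it was at 13.2, 10.9 and 12.5 in CD244-positive and at 14.7, 15.6 and 15.6 in CD244-negative libraries, a difference of -19.9%. Among the 9 separated genes were 4 of complex III (Uqcr11, Uqcrb, Uqcrc2 and Uqcrh), named after their values were seen.
Uqcrh was at 5.57, 4.73 and 4.59 per 10000 in CD244-positive and 5.78, 6.73 and 6.65 in CD244-negative libraries. Its log2 difference was -0.34 ± 0.24 (SE, adjusted p = 1), so that the separation did not pass the test over all genes. An exact permutation test of 3 libraries against 3 cannot give a p below 0.1.

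Cox7a2, the general form of complex IV subunit 7a, had similar values in both tissues. It was at 1.89 ± 0.251 per 10000 in lung CD244-positive and 3.15 ± 0.479 in lung CD244-negative cells, and at 1.86 ± 0.644 in CD244-positive thymus cells and 3.07 ± 0.549 in CD244-negative ones (SD, n = 3 each). The log2 differences were -0.61 ± 0.30 in lung and -0.62 ± 0.30 in thymus (SE), with adjusted p of 0.199 and 1. Neither passed, and the lung groups did not overlap while the thymus groups met between 2.52 and 2.50.

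Between CD244-positive and CD244-negative cells of the lung the set was mixed. Ndufb4 and Cox7c rose and Cox7a2l fell in CD244-positive cells. Of the 74 tested genes 2 rose, where 7.08% of all tested genes rose, and 1 fell, where 3.95% fell, so the 3 calls were a smaller share than the 11% of all tested genes that passed. The median log2 difference was 0.11, against 0.00 over all tested genes, with 32 of the 74 below 0 (50.3% of all). It was 0.16, 0.20 and 0.06 without lung CD244-positive library 1, 2 and 3. In 6 genes all CD244-positive libraries were above all CD244-negative ones (12.2% of all tested genes) and in 5 below (10.1%). The macrophage markers were at 62.1 to 124.9 per 10000 in these CD244-positive libraries and at 0.311 to 0.673 in the CD244-negative ones, all 12 of them past the test, and the 9 T cell markers were at 9.41 to 20.5 against 25.9 to 34.4 (4 fell). The 4 MHC class II markers were at 48.9 to 126 against 0.332 to 0.621, all past the test, and the 5 iNKT markers at 5.64 to 12.4 against 16.8 to 23.9 (2 fell). All 4 MHC class II markers and most macrophage markers entered the test only through these CD244-positive libraries, where they were high. The part of all these markers in the results for this set was not tested.

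Ndufb4 was at 1.84, 2.12 and 2.33 per 10000 in lung CD244-positive libraries, against 0.337, 0.663 and 0 in lung CD244-negative ones. The groups were far apart, with 30 molecules against 3, and the log2 difference was 1.72 ± 0.36 (SE, adjusted p = 0.000341). The ratio of the pooled shares was 6.44 with an exact 95% interval of 2.0 to 33.0. DESeq2 did not call it (adjusted p = 0.186), and edgeR did not test it. Cox7c was at 2.76, 4.23 and 4.63, against 1.35, 0.829 and 2.64. Its nearest libraries of the 2 groups nearly met, and the log2 difference was 1.12 ± 0.30 (SE, adjusted p = 0.00622). Cox7c did not pass without lung CD244-positive library 3 or without lung CD244-negative library 2, nor in DESeq2, while edgeR called it.

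Cox7a2l was at 1.84, 1.65 and 1.75 per 10000 in lung CD244-positive libraries and at 5.39, 4.31 and 2.80 in lung CD244-negative ones. Its CD244-negative values were widely spread but all above the CD244-positive ones, with a log2 difference of -1.02 ± 0.28 (SE, adjusted p = 0.00763). Cox7a2l did not pass without lung CD244-negative library 1, nor in edgeR or DESeq2. In thymus the same contrast was -0.05 ± 0.28 for Cox7a2l and -0.07 ± 0.30 for Cox7c, both with an adjusted p of 1. The summed level was 114.6, 120.7 and 139.6 in lung CD244-positive and 111.5, 121.6 and 122.8 in lung CD244-negative libraries, which overlapped. Complex I was at 35.9 ± 1.60 and 33.2 ± 0.942 (SD, n = 3 each), with every CD244-positive library above every CD244-negative one by a small margin.

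**Figure D4:**
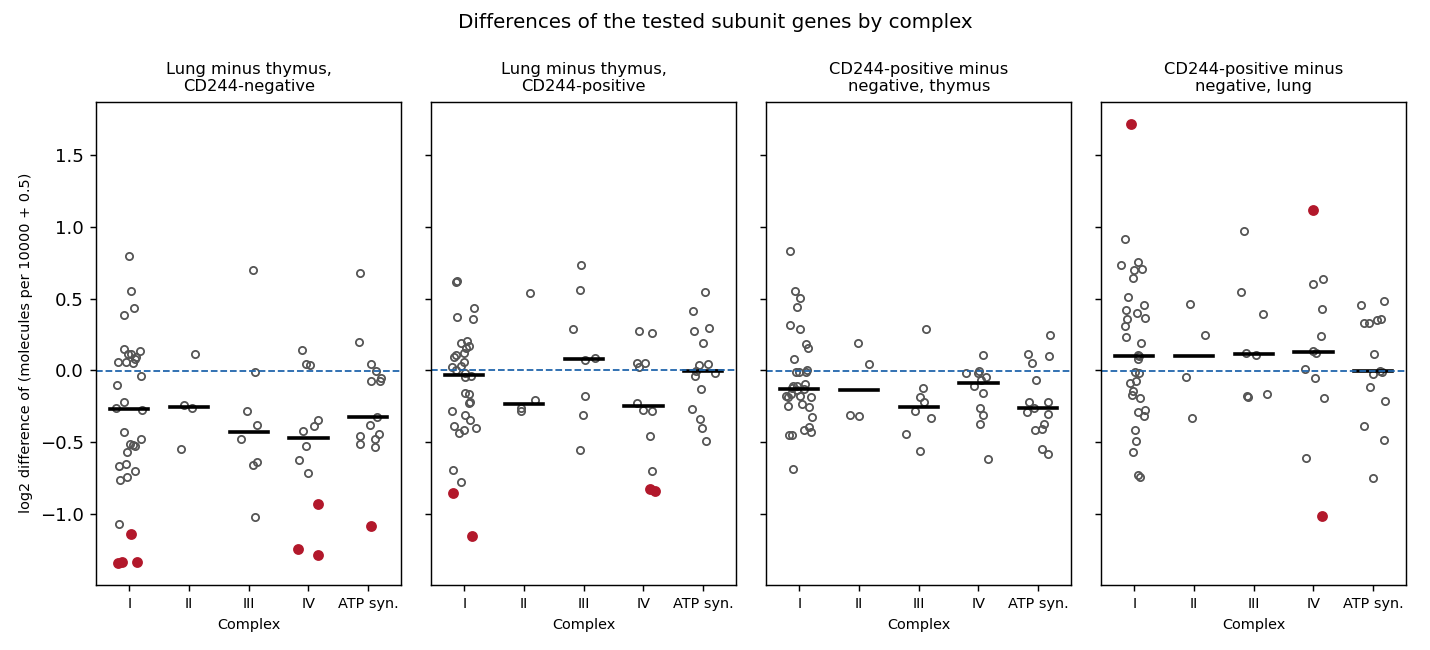
Log2 differences of the tested subunit genes by complex in the 4 comparisons, on the log2(molecules per 10000 + 0.5) scale; open circles are genes, filled circles genes past an adjusted p of 0.05, black lines the complex median and dashed lines the median of all tested genes. In lung against thymus CD244-negative cells the medians of all 5 complexes lie below the dashed line, and 8 genes are filled, all below 0.

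The CD244 difference itself was compared between the tissues with an interaction term. Ndufb4 passed, with a CD244 difference larger in lung than in thymus by 1.95 ± 0.51 on the log2 scale (SE, adjusted p = 0.0116). In thymus Ndufb4 was at 1.95, 0.631 and 1.24 per 10000 in CD244-positive and 1.63, 1.20 and 1.66 in CD244-negative libraries, a log2 difference of -0.23 ± 0.36, with groups that overlapped. It was 1 of 74 tested genes to pass, where 4.24% of all tested genes passed (3.47% above 0 and 0.765% below), and it did not pass without thymus CD244-positive library 2, when 0 genes of the set passed. Without lung CD244-negative library 1 or 3, 2 and 3 genes of the set passed. The interaction was above 0 for 55 of the 74 genes, as for 51.3% of all tested genes, with a median of 0.17 against 0.02. The median was 0.29 and 0.11 without lung CD244-positive library 2 and 3, and 0.26 without lung CD244-negative library 3. All 8 genes of complex III lay above 0, from 0.03 for Uqcrc1 to 1.09 for Uqcr10, though none of them passed. The thymus CD244-negative libraries, which have the highest sums, enter this term with the same sign as the lung CD244-positive ones.

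Genes that work beside these enzymes were tested in the same fit. Of 17 tested genes of the tricarboxylic acid cycle and pyruvate dehydrogenase, 0 passed in limma, edgeR or DESeq2 in any of the 4 comparisons, although edgeR could test 1 of them only. At an unadjusted p under 0.05 in limma, 2 were lower in lung CD244-positive than CD244-negative cells and 0 differed in the other 3 comparisons. All 20 genes of that list summed to 14.3 ± 0.336 per 10000 in lung CD244-positive, 13.7 ± 3.06 in lung CD244-negative, 11.2 ± 0.146 in CD244-positive thymus cells and 13.0 ± 2.05 in CD244-negative ones (SD, n = 3 each). In lung against thymus CD244-negative cells their median log2 difference was 0.02, beside the -0.36 of the respiratory chain set. Of 11 tested assembly factors outside the naming rule 0 passed in limma or DESeq2 in any of the 4, and edgeR tested none of them. Their median was -0.24 in lung against thymus CD244-negative cells, and 2 were lower in lung CD244-positive than thymus CD244-positive cells at an unadjusted p under 0.05 in limma.

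Of 3 tested genes of cytochrome c and ubiquinone synthesis, Coq10b, which encodes a coenzyme Q binding protein, rose in lung in both subsets. It was at 1.02, 1.41 and 0.972 per 10000 in lung CD244-positive libraries, against 0, 0.158 and 0.177 in thymus CD244-positive ones (log2 difference 1.42 ± 0.37, adjusted p = 0.00338). It was at 1.68, 1.33 and 0.932 in lung CD244-negative libraries, against 0.148, 0 and 0 in thymus CD244-negative ones (1.71 ± 0.37, adjusted p = 0.000705). In both subsets all lung libraries were higher. Coq10b was above the filter of 0.5 per 10000 in lung libraries only, so it entered the test through the tissue where it was higher. DESeq2 did not call it in CD244-positive cells (adjusted p = 0.453), and the part of the macrophage markers in that comparison was not tested.

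Of 7 tested regulators of mitochondrial gene expression, Gabpb1 rose and Myc fell in lung against thymus CD244-negative cells, and 0 passed in the other 3 comparisons. In limma 2 of them had an unadjusted p under 0.05 between lung and thymus CD244-positive cells and 0 in the 2 comparisons by CD244; DESeq2 called 0 in each, and edgeR tested none. Gabpb1, a subunit of the GABP factor known to activate respiratory genes, was at 1.35, 0.995 and 1.24 per 10000 in lung and 0.148, 0.449 and 0 in thymus (log2 difference 1.32 ± 0.38, adjusted p = 0.0200). Its groups did not overlap, and it did not pass without thymus CD244-negative library 1 or 3 or lung CD244-negative library 1. Gabpb1 was above the filter of 0.5 per 10000 in lung libraries only. It thus entered the test through the tissue where it was higher, and it did not pass with no filter. Myc, a transcription factor known to drive growth and mitochondrial biogenesis, was at 0, 0.663 and 0 in lung and 1.19, 1.50 and 1.33 in thymus (-1.47 ± 0.38, adjusted p = 0.00801), again with no overlap. Ppargc1a, the coactivator of mitochondrial biogenesis, was at 0 in all 12 libraries.

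Among 9 tested carriers, porins and uncoupling proteins, Atpif1, the inhibitor of the ATP synthase's reverse reaction, rose in lung CD244-positive against lung CD244-negative cells. It was at 0.409, 1.65 and 0.778 per 10000 in CD244-positive libraries and at 0 in all 3 CD244-negative ones (log2 difference 1.44 ± 0.38, adjusted p = 0.00620). A floor of 3 molecules over the group puts the CD244-negative level at no more than 0.326 per 10000. The pooled CD244-positive level of 0.910 was 2.79 times that floor. It rested on 13 molecules, 7 of them in library 2, and their counting error is not part of the 2.79. It did not pass without lung CD244-positive library 2, and the part of the macrophage markers in it was not tested. Atpif1 was above the filter in CD244-positive libraries only, of lung and of thymus. It thus entered the test through the CD244 class where it was higher. No gene of that list passed in limma, edgeR or DESeq2 in the other 3 comparisons, where 1, 1 and 2 genes had an unadjusted p under 0.05 in limma (between CD244-positive and CD244-negative thymus cells, lung and thymus CD244-positive cells, and lung and thymus CD244-negative cells).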

How the data were processed

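Each of the 12 libraries was made from 100 sorted cells with molecular barcodes. Reads were aligned with STAR to mm10, per the submitters' processing notes; the counting, annotation and scaling are not given in the sources used here. The deposited values are a signal, molecule counts scaled by the authors so that each lung column totals 19342.9 and each thymus column 26890.5. Molecules were recovered by dividing each column by its most frequent value, and 94.3% to 95.9% of nonzero values came out whole (tolerance 1e-06). Differences between groups were tested with limma 3.58.1 (trend and robust options, R 4.3.3) on log2(molecules per 10000 + 0.5) in 1 model of 4 groups over 12 libraries, two-sided, with Benjamini-Hochberg adjustment over 4577 genes and a threshold of 0.05. This scale understates changes of low genes. For 3 of the 12 libraries too few values came out whole, so edgeR 4.0.16 and DESeq2 1.42.0 ran on recovered, rounded molecules of the other 9 libraries as alternatives. The lowest whole shares were those of thymus CD244-positive libraries 1 and 2 (94.26% and 94.28%) and thymus CD244-negative library 2 (94.44%). Without these, thymus CD244-positive would rest on library 3 alone, so a missing call in edgeR or DESeq2 says little there. Scripts were tested on simulated data. Sums and motif counts were computed in Python 3.11.15 with pandas 2.3.3 and scipy 1.17.1. Exact intervals and floors of 3 molecules cover counting error only. Coordinates are from GENCODE M21 (GRCm38), which held 91 of the 92 symbols, and promoters from RefSeq GRCm38.p6. Genes past the threshold (up to 8 per direction), the 3 most abundant genes per complex and the isoform groups were named by rule. The members and lists were chosen with earlier results of these data known. No columns were left unmapped.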

Additional observations from a re-analysis of the deposited data

Results flagged for a closer look

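Ndufb4, a membrane arm subunit of complex I, was flagged because its CD244 difference was not the same in lung as in thymus. The CD244-positive minus CD244-negative difference was larger in lung by 1.95 ± 0.51 on the log2 scale (SE, limma adjusted p = 0.0116; 1.72 in lung and -0.23 in thymus). All 3 lung CD244-positive libraries were higher than the lung CD244-negative ones, whose 3 molecules in all limit the value, and the thymus groups overlapped. It did not pass without thymus CD244-positive library 2 (adjusted p = 0.0856), edgeR did not test it, and DESeq2 gave it no adjusted p. The macrophage markers were at 62.1 to 124.9 per 10000 in the lung CD244-positive libraries and at 0.311 to 0.673 in the lung CD244-negative ones, the MHC class II markers at 48.9 to 126 and 0.332 to 0.621, and their part in the result was not tested.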

How the results depend on the processing

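No gene past the threshold changed direction under any setting run. Of the values that answer a comparison, 291 stayed within the limits set and 55 moved, and of the values of single genes and single complexes 453 kept their call or level, 87 lost the call and 14 moved. The cause of each change was not tested, except that edgeR and DESeq2 had only 9 libraries, and that Ndufb4, Ndufb7, Ndufa8 and Ndufa11 were not among the 37 genes of the set tested in edgeR or the 32 that passed the stricter filter. Using the values as deposited shifted the median of all tested genes by -0.26 in lung minus thymus CD244-positive and -0.27 in lung minus thymus CD244-negative cells; leaving ribosomal protein genes out of the total shifted it by -0.12 and -0.11. In lung minus thymus CD244-negative cells, 8 genes of the set passed, against 19 as deposited, 5 with no filter, 4 with a stricter filter, 5 with only the libraries compared, 3 in edgeR, 1 in DESeq2 and 1 to 7 with 1 library left out. The median of the set, -0.36, was -0.74 as deposited, -0.50 without ribosomal protein genes in the total, -0.19 with a pseudocount of 2 and -0.48 in edgeR. The log2 ratio of its sums, -0.38, was -0.86 as deposited and -0.56 without ribosomal protein genes in the total. Over all genes 315 passed, against 560 as deposited and 137 in DESeq2. In lung minus thymus CD244-positive cells, 4 genes of the set passed, against 9 as deposited, 1 with no filter, 0 in edgeR and DESeq2, and 0 to 4 with 1 library left out. The median of -0.02, which was also above 0 in edgeR and DESeq2 (0.01 and 0.03) and without lung CD244-positive library 1 or 2 (0.03 and 0.01), was -0.38 as deposited and -0.23 with the stricter filter, the ratio of sums of -0.13 was -0.60 as deposited and -0.35 without ribosomal protein genes in the total, and over all genes 563 passed, against 365 with the stricter filter, 296 in edgeR and 160 in DESeq2. In lung, 3 genes of the set passed between CD244-positive and CD244-negative cells, against 1 in edgeR, which did not test Ndufb4, and 0 in DESeq2; over all genes 505 passed, against 272, 175 and 79 with the stricter filter, edgeR and DESeq2, and the median of 0.11 was -0.01 with the stricter filter, 0.05 with quantile normalization, 0.07 without ribosomal protein genes in the total, 0.04 with a pseudocount of 2, 0.22 in edgeR and 0.25 in DESeq2. In thymus, 15 of all genes passed, against 34 with sample quality weights, 23 with only the libraries compared, 5 in DESeq2 and 9 to 13 with 1 library left out; the median of the set, -0.16, was -0.08 with a pseudocount of 2 and -0.26 in DESeq2. For the interaction, 1 gene of the set passed, against 0 with the stricter filter and in edgeR, neither of which tested that gene (Ndufb4), 0 in DESeq2, which gave it no adjusted p, and 0 to 3 with 1 library left out; its median of 0.17 was 0.40 in edgeR, 0.52 in DESeq2, 0.27 and 0.08 with a pseudocount of 0.2 and 2, and 0.11 to 0.29 with 1 library left out, and over all genes 194 passed, against 115, 22 and 15 with the stricter filter, edgeR and DESeq2.

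The replicate numbers did not pair the libraries: same-numbered libraries of different groups had correlations of deviations of -0.0337 to 0.0173 (18 pairs), other pairs -0.0416 to 0.0346 (36 pairs), and 3 of 12 libraries were closest to their own number. With the replicate number as a block, 3 genes of the set passed in lung minus thymus CD244-positive cells, 7 in lung minus thymus CD244-negative cells, 3 between CD244-positive and CD244-negative cells in lung, 0 in thymus and 1 for the interaction. Depth limits the result for scarce genes: 3 molecules over a group are worth 0.210 per 10000 in lung CD244-positive, 0.326 in lung CD244-negative cells, and 0.156 and 0.154 in the thymus groups of the same order.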
